A study of Mus musculus with 4 samples.

Results

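Post-mitotic immature neutrophils of mouse bone marrow are the cells that have stopped dividing, still carry the transcripts of the secondary granules and have not yet taken on the transcript pattern of circulating neutrophils. They were taken here by a rule on their own transcripts. In each of 4 droplet libraries, a barcode was kept if it had 200 or more genes with a UMI (unique molecular identifier, a counted transcript) and no more than 10% of its UMIs from mitochondrial genes. The class was selected on granule, calprotectin and proliferation transcripts, and held the kept barcodes in which Camp, Ngp and Ltf together made up at least 3% of UMIs, S100a8 and S100a9 together made up at least 3%, and neither Mki67 nor Top2a had a UMI. This gave 7811 cells of 49567 kept barcodes, out of 51065 deposited. The YAP1 heterozygote libraries held 1860 and 2011 of these cells, and the WT libraries held 2053 and 1887.

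The study compared 10-week-old YAP1 heterozygote mice with WT mice of the same age, with 2 libraries for each genotype. The sorted material was nucleated cells of the marrow, and the labels list no treatment. The sort gates, the strain and the nature of the Yap1 allele are not stated in the labels, so it is not known here which part of the gene or which cells the change affects. The labels do not say how many mice entered a library. In the immature neutrophils, Ddx3y of the Y chromosome stood at 60.57 CPM (UMIs of the summed cells scaled to a common total) in YAP1 heterozygote replicate 1 and at 96.56 CPM in WT replicate 1, and at 0 in the other two libraries. Xist stood at 161.1 CPM in YAP1 heterozygote replicate 2 and at 173.8 CPM in WT replicate 2, and at 0 in the other two. The 2 libraries of a genotype therefore came from mice of different sex, and replicate number and sex ran together in both genotypes.

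Neutrophils fill their granules in order while they mature. Primary granule proteases are made in promyelocytes. Secondary granule proteins such as lactoferrin (Ltf), cathelicidin (Camp) and neutrophilic granule protein (Ngp) are made in the stage described here, and gelatinase granule proteins such as Mmp9 later. The transcription factor C/EBP epsilon is required in mice for the secondary granule genes, and PU.1 acts through much of myeloid development. S100a8 and S100a9 encode calprotectin, the calcium-binding protein pair that is abundant in neutrophil cytosol. Yap1 encodes a coactivator that the Hippo kinases restrain and that works through TEAD factors on DNA.

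The promoters of the 5 marker genes of the class are shown because these genes share a stage and a known class of regulator. Each line gives 250 bases before and 50 bases after the annotated start, 5′ to 3′ on the gene's own strand, from RefSeq on GRCm38.p6. Capitals mark the letters TTGCNNAA, a C/EBP-type motif searched on both strands. The windows are chr9:109849407-109849706 on the minus strand for Camp, chr9:110419558-110419857 on the plus strand for Ngp, chr9:111019042-111019341 on the plus strand for Ltf, chr2:32387690-32387989 on the minus strand for Lcn2 and chr15:75155011-75155310 on the plus strand for Ly6g.
Camp: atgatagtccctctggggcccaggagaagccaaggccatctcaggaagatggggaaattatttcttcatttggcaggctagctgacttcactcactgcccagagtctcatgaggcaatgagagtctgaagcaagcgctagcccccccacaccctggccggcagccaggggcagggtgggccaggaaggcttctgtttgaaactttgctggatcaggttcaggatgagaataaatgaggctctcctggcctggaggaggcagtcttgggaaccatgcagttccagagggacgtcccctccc
Ngp: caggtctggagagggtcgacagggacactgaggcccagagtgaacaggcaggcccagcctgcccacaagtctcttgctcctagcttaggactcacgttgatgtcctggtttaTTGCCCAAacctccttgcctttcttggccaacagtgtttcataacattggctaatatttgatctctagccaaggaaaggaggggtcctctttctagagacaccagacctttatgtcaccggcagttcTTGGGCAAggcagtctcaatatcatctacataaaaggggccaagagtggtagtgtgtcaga
Ltf: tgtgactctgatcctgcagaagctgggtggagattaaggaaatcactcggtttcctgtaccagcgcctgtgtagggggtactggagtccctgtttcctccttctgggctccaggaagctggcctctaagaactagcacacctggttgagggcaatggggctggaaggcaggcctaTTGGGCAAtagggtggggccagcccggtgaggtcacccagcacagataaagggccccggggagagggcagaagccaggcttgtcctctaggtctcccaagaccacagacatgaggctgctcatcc
Lcn2: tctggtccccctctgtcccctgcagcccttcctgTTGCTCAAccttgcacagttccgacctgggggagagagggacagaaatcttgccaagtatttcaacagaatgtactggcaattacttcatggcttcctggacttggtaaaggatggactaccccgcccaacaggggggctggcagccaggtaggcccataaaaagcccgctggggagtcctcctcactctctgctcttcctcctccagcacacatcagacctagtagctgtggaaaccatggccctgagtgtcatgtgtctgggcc
Ly6g: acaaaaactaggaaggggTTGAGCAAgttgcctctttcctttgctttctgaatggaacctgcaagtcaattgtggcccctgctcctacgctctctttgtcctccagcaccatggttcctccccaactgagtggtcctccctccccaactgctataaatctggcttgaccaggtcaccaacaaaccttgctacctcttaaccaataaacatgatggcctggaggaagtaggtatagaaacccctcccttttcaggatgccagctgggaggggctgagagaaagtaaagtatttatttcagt

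The C/EBP-type letters were present in 4 of the 5 windows, against 10.8% of 32851 promoters of the same length. Ngp had 2 matches, at positions -138 and -11 from the annotated start. Ltf had 1 match at -75, Lcn2 had 1 at -216, and Ly6g had 1 at -232. RefSeq lists 2 entries for Ly6g, and the other window had 0 matches. The letters were not found in the Camp window. The PU.1-type letters GAGGAA, which did not overlap the C/EBP-type matches and are not marked, were present on either strand in 3 of the 5 windows (Ltf, Lcn2 and Ly6g), against 28.3% of all promoters. Such matches describe the letters only.

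The transcripts of the class fitted its label. Camp stood at 37450 and 36070 CPM in the YAP1 heterozygote libraries, against 35000 and 36900 CPM in the WT libraries. Ngp stood at 43180 and 44800 CPM in YAP1 heterozygote cells, against 44780 and 47600 CPM in WT cells. Ltf stood at 13980 and 12700 CPM in YAP1 heterozygote cells, against 13740 and 13170 CPM in WT cells. The 3 genes chose the cells, so their levels are a description, and the genotypes overlapped in all 3. The rule did not use Lcn2, which encodes the iron-siderophore binding protein lipocalin 2, nor Ly6g, the surface antigen by which mouse neutrophils are sorted. Lcn2 stood at 19540 and 21650 CPM in YAP1 heterozygote cells, against 17650 and 22160 CPM in WT cells. Ly6g stood at 1225 and 1113 CPM in YAP1 heterozygote cells, against 1047 and 1076 CPM in WT cells, a pattern without overlap that did not pass the test (log2 fold change 0.16, SE 0.109, edgeR adjusted p = 0.964). Ly6g belongs to a family of near-identical neighbours, between which the counting could have split reads.

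To set detection apart from depth, each cell was thinned to 1500 UMIs, which left out between 5 and 19 immature neutrophils per library. After thinning, Lcn2 had a UMI in 99.95% to 100% of the immature neutrophils of a library, and Ly6g in 70.88% to 78.1%. In B cells of the same libraries, which should lack both, the shares were 20.22% to 24.49% for Lcn2 and 0.862% to 1.12% for Ly6g. The part of free RNA, doublets and other cells in these B cell shares was not tested. Unthinned, Ly6g had a UMI in 96.24% to 97.08% of immature neutrophils, at a median of 7787 to 8816 UMIs per cell, and in 1.901% to 3.092% of B cells, at 2718 to 3248 UMIs. Cdk1, the kinase of mitotic entry, had a UMI in 0.251% to 0.425% of thinned immature neutrophils, against 16.63% to 18.24% of the dividing precursors, the cells that met the same granule and calprotectin limits but had at least 1 UMI of Mki67 or Top2a. Pcna, the clamp of DNA replication, had one in 2.39% to 4.76% of immature neutrophils, against 23.95% to 26.4% of dividing precursors. Dividing precursors had median depths of 15690 to 17278 UMIs, above the 7787 to 8816 UMIs of the class, and the rule on Mki67 and Top2a was not thinned.

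Depth and quality were alike across the libraries. The deposited totals were 112806900 and 119855112 UMIs in the YAP1 heterozygote libraries and 114943163 and 115773607 UMIs in the WT libraries, of which the immature neutrophils held between 16637392 and 17127279 per library. Their median depth was 8816 and 8159 UMIs in YAP1 heterozygote libraries, against 7787 and 8426 UMIs in WT libraries, and the median share of mitochondrial UMIs was 0.41% to 0.497%. Pairs of libraries shared 27 to 62 cell barcodes, and 0 or 1 barcodes of the class. The doublet caller Scrublet marked 5.3% to 7.36% of the class in a library, and these cells were kept, with the values without them given in the closing section. The cells just inside the granule limit, at 3% to 3.5% of UMIs, numbered 60 to 73 per library, and those just outside, at 2.5% to 3%, numbered 73 to 103. Retnlg, a resistin-like gene of late neutrophils, stood at 40090 to 46370 CPM just inside and at 44520 to 49780 CPM just outside, so the cells on both sides of the limit had similar levels. The calprotectin limit removed 0 cells that met the others.

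The cells were not uniform in stage. A maturation index was computed per cell from genes outside the rule, as the UMIs of 6 late genes (Mmp8, Mmp9, Retnlg, Cxcr2, Csf3r and Ccl6) over the UMIs of these and 8 early genes (Fcnb, Chil3, Serpinb1a, Cebpe, Elane, Prtn3, Mpo and Ctsg). Along it, the secondary granule transcripts peaked at different points. Camp was already at its highest in bin 1 of 10 equal bins of cells, at 54090 to 55720 CPM per library, and stood at 12240 to 15010 CPM in bin 10. Ltf stood at 12620 to 13570 CPM in bin 1, at 14080 to 16040 CPM in bin 5 and at 6279 to 7535 CPM in bin 10. Ly6g had the same humped course, with 630.8 to 753.9 CPM in bin 1, 1297 to 1601 CPM in bin 5 and 673.1 to 904.6 CPM in bin 10. These courses are descriptions of 4 libraries, without a test. The rule cut the class on Camp, Ngp and Ltf and on Mki67 and Top2a, which bears on the courses of the granule genes. The median depth was also lower late in the index, with 9358 to 11508 UMIs in bin 1 and 6220 to 6740 UMIs in bin 10.

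**Figure D1:**
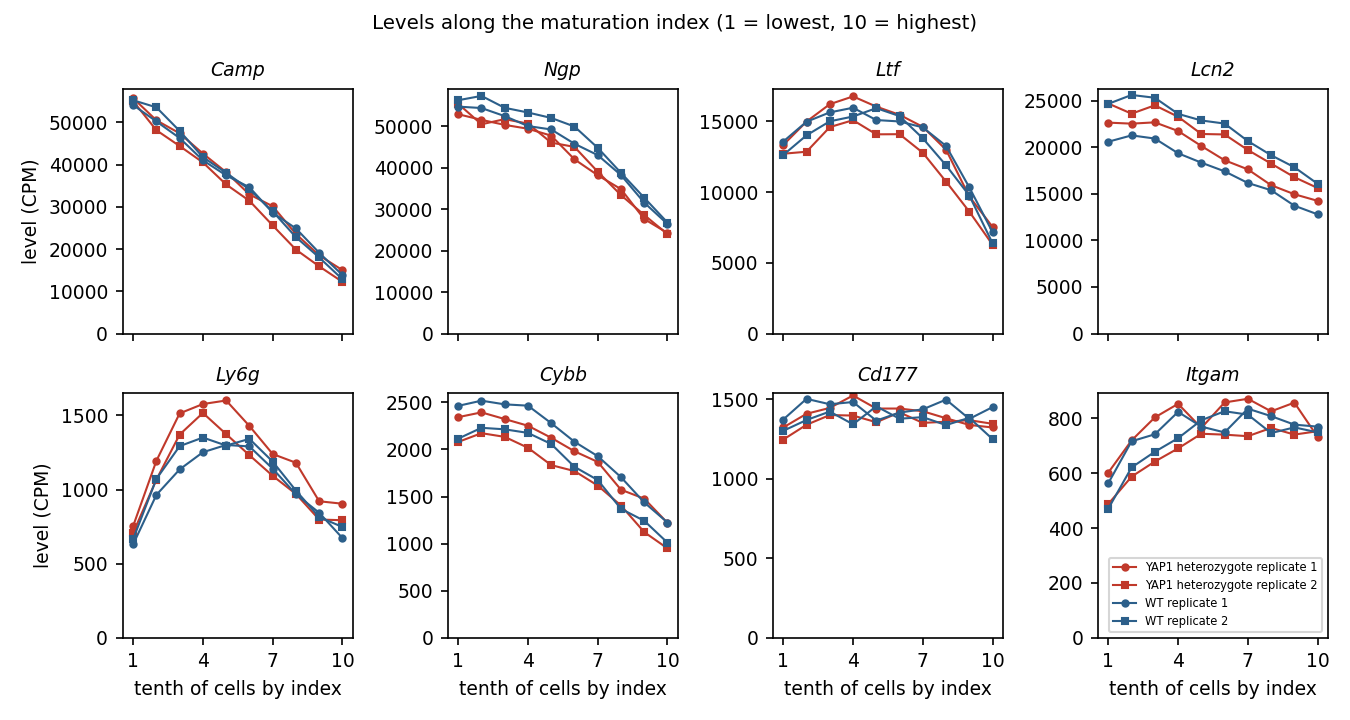
Level in CPM (vertical axes, linear, from 0) of 8 genes that the maturation index does not use, over 10 equal bins of immature neutrophils ordered by the index (horizontal axes, 1 lowest), with 1 line per library. Camp, Ngp, Lcn2 and Cybb were lower in bin 10 than in bin 1, and Ltf and Ly6g were highest in between, in each of the 4 libraries. The rule used Camp, Ngp and Ltf to choose the cells.

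Other neutrophil genes varied along the same axis. Cybb, the heme-binding subunit of the NADPH oxidase, stood at 2079 to 2462 CPM in bin 1 and at 949.5 to 1224 CPM in bin 10. Cd177, a surface protein of neutrophils, kept between 1246 and 1455 CPM in bins 1, 5 and 10 of the 4 libraries. Cut into 3 groups at index values of 0.468 and 0.877, the cells had a median granule share (Camp, Ngp and Ltf) of 11.71% to 12.31% in the early cells, 9.449% to 10.42% in the middle cells and 5.34% to 6.155% in the late cells. The rule had left out cells in which this share was under 3%. Cebpe, which encodes C/EBP epsilon and is itself an index gene, stood at 426.3 to 510.8 CPM in the early cells, 293.7 to 308.7 CPM in the middle cells and 113.4 to 144 CPM in the late cells. Spi1, which encodes PU.1, ran the other way, with 312.9 to 368.7 CPM in the early cells and 386.9 to 472.6 CPM in the late cells. Hspa5, the chaperone BiP of the endoplasmic reticulum, stood at 317.4 to 555.8 CPM in the early cells and at 140.1 to 230 CPM in the late cells.

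The class stood between its neighbours in the lineage. Mature neutrophils were taken as cells with the calprotectin limit met, the granule share under 3% and no UMI of Mki67 or Top2a. Since the classes were cut by their transcripts, the differences carry no test. Besides the genes of the rule, the transcripts most above mature neutrophils were those of Chil3, a chitinase-like lectin, Lta4h, the enzyme that makes leukotriene B4, and Cebpe. Chil3 stood at 3836 to 5137 CPM in immature and 156.1 to 226.7 CPM in mature neutrophils. Lta4h stood at 387.9 to 402.7 CPM in immature and 23.09 to 33.52 CPM in mature neutrophils, a mean log2 difference of 3.84 over the 4 libraries. Serpinb1a, an inhibitor of the granule proteases, stood at 583 to 820.8 CPM in immature and 90.8 to 119.9 CPM in mature neutrophils. None of these 4 genes overlapped between the classes in any library.

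Genes of the mature state were low in the class. Il1b, which encodes the cytokine interleukin 1 beta, stood at 38.74 to 113.5 CPM in immature and 1043 to 2537 CPM in mature neutrophils, a mean log2 difference of -4.75. Ccl6, a chemokine gene, stood at 96.91 to 113.5 CPM in immature and 2108 to 2821 CPM in mature neutrophils. Ifitm1, Wfdc17 and Ptgs2, the last of which encodes the prostaglandin enzyme cyclooxygenase 2, were lower in immature neutrophils with mean log2 differences of -4.43, -4.43 and -4.09. The receptors were part of the way there. After thinning, Cxcr2, the receptor for neutrophil chemokines, had a UMI in 35.99% to 39.37% of immature neutrophils, 76.54% to 84.06% of mature neutrophils and 10.53% to 13.9% of dividing precursors, against 0.548% to 1.08% of B cells.

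Against dividing precursors, the class had low levels of cell cycle and primary granule transcripts. H1f5, a linker histone gene of S phase, stood at 3.986 to 7.63 CPM in immature neutrophils and 505.9 to 764 CPM in dividing precursors, the largest of the listed differences at -6.59 on the log2 scale. Tuba1b and Tubb5, which encode tubulins, and Stmn1, a regulator of microtubules, had mean log2 differences of -5.21, -4.56 and -5.17. Elane, which encodes neutrophil elastase of the primary granules, stood at 20.55 to 37.36 CPM in immature neutrophils and 1266 to 1561 CPM in dividing precursors. In the other direction, Mmp8, the neutrophil collagenase, stood at 2216 to 2513 CPM in immature neutrophils and 250 to 304.2 CPM in dividing precursors. Mmp9, gelatinase B, stood at 1982 to 2072 CPM in immature neutrophils and 272.2 to 328.6 CPM in dividing precursors.

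The share of the class did not differ between the genotypes beyond the spread of the libraries. Immature neutrophils made up 16.93% (95% Wilson interval 16.24 to 17.65) and 14.54% (13.97 to 15.14) of kept barcodes in the YAP1 heterozygote libraries, against 15.8% (15.19 to 16.44) and 16.04% (15.39 to 16.71) in the WT libraries. The 2 YAP1 heterozygote libraries stood on either side of both WT libraries. The means were 15.74 ± 1.69% in YAP1 heterozygotes and 15.92 ± 0.166% in WT (SD, n = 2 each), a difference of -0.184 percentage points (two-sided exact permutation p = 1). With 2 libraries against 2, no such test can go below 0.333. Without YAP1 heterozygote replicate 2 the difference was 1.01 percentage points. Dividing precursors made up 10.84 ± 1.61% in YAP1 heterozygotes and 10.88 ± 1.23% in WT, and mature neutrophils 21.13 ± 0.355% in YAP1 heterozygotes and 20.55 ± 0.91% in WT (SD, n = 2 each). The intervals cover counting error only.

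**Figure D2:**
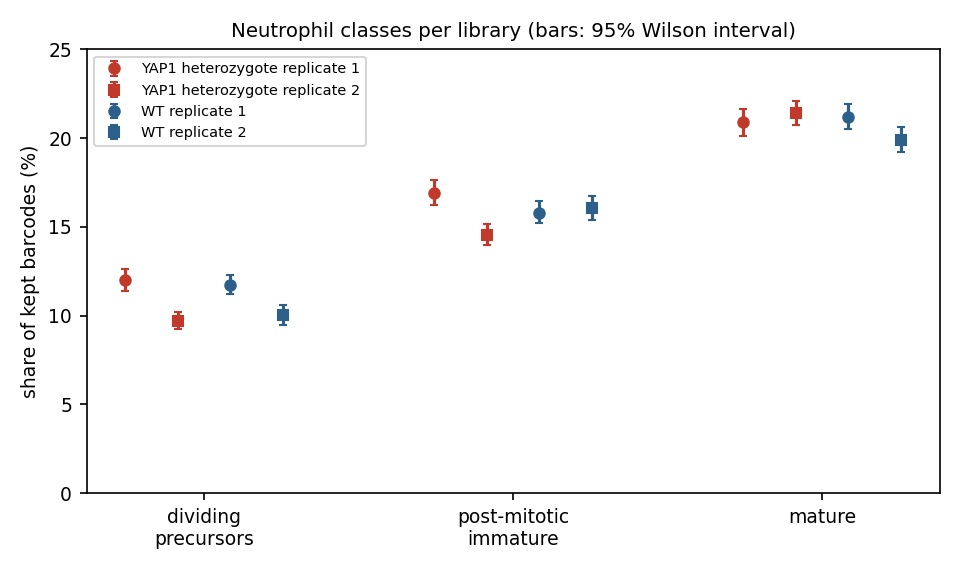
Share of kept barcodes in percent (vertical axis, from 0) of dividing precursors, post-mitotic immature neutrophils and mature neutrophils in each library, with 95% Wilson intervals. The YAP1 heterozygote libraries held 16.93% and 14.54% immature neutrophils, on either side of the WT libraries at 15.8% and 16.04%.

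Within the class, YAP1 heterozygote cells stood lower on the maturation index, but the difference could not pass the test at this number of libraries. The mean index was 0.611 and 0.587 in the YAP1 heterozygote libraries, against 0.665 and 0.625 in the WT libraries. Both YAP1 heterozygote libraries were below both WT libraries. The means were 0.599 ± 0.0168 in YAP1 heterozygotes and 0.645 ± 0.0284 in WT (SD, n = 2 each), a difference of -0.0463 (two-sided exact permutation p = 0.333, the smallest that 2 against 2 allow). Late cells made up 33.17% and 28.81% of the class in YAP1 heterozygote libraries, against 36.99% and 34.55% in WT libraries. The summed mature neutrophil markers, 8 genes that include the late genes of the index, stood at 16370 to 17770 CPM in YAP1 heterozygotes. In WT they stood at 18040 to 18740 CPM, and none was at 0. The sum shares these genes with the index, so it is no separate evidence for the index difference. Retnlg made up most of the sum, at 12520 and 11470 CPM in YAP1 heterozygote libraries, against 12730 and 13680 CPM in WT libraries. After thinning to 1500 UMIs the index difference was -0.0511. Without Retnlg and Chil3, which carry many of the UMIs, it was -0.0192 and the libraries overlapped.

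**Figure D3:**
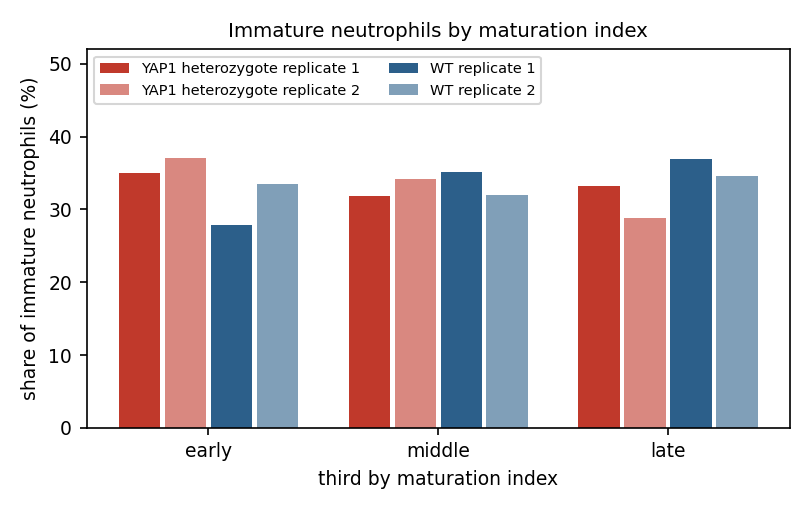
Share of immature neutrophils in percent (vertical axis, from 0) among the early, middle and late cells of the maturation index, per library. The late cells made up 33.17% and 28.81% in the YAP1 heterozygote libraries, below the 36.99% and 34.55% in the WT libraries.

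How many genes differed between the genotypes past the threshold in immature neutrophils depended on how replicate number, and with it sex, entered the fit. UMIs were summed over the class in each library and 10459 genes were tested with edgeR's quasi-likelihood test, in which 3 genes (0.0287%) passed a Benjamini-Hochberg adjusted p of 0.05, with 1 lower (0.00956%) and 2 higher (0.0191%) in YAP1 heterozygotes. In all, 617 genes had an unadjusted p under 0.05. With the replicate number as a block, edgeR called 335 genes (3.2%), with 284 lower (2.72%) and 51 higher (0.488%), and the 3 genes were among them. DESeq2 without the block called 25. The gene that fell in the fit without the block was Fosl1 (ENSMUSG00000024912, chromosome 19, 5447547 to 5455946, GRCm38), which encodes the AP-1 subunit FRA-1. Fosl1 stood at 9.861 and 14.01 CPM in YAP1 heterozygote cells, against 36.35 and 31.68 CPM in WT cells. The groups did not overlap, and the log2 fold change was -1.48 (SE 0.173, edgeR adjusted p = 0.0457).

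The Fosl1 difference was present in the early, middle and late cells and in both neighbouring classes. In the early cells Fosl1 stood at 6.272 and 6.835 CPM in YAP1 heterozygote cells, against 16.76 and 19.11 CPM in WT cells. In the late cells it stood at 16.66 and 23.06 CPM in YAP1 heterozygote cells, against 54.1 and 46.16 CPM in WT cells. The genotypes overlapped in none of the 3, and Fosl1 did not pass edgeR's threshold in any of them alone. In mature neutrophils Fosl1 stood at 9.819 and 15.34 CPM in YAP1 heterozygotes, against 42.51 and 36.86 CPM in WT (log2 fold change -1.63, SE 0.205, edgeR adjusted p = 0.253). In dividing precursors it stood at 3.721 and 3.629 CPM in YAP1 heterozygotes, against 9.435 and 7.959 CPM in WT. The genotype difference in the class did not pass a test against that in mature neutrophils (log2 difference 0.15, SE 0.143, edgeR adjusted p = 0.999).

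The signal was spread over many cells at a low level. A Fosl1 UMI was present in 1.73% and 2.56% of thinned YAP1 heterozygote cells, against 6.03% and 5.05% of thinned WT cells. Unthinned, the shares were 7.9% and 10.14% in YAP1 heterozygote libraries, against 22.84% and 22.2% in WT libraries. In B cells at most 0.172% had one after thinning. No single cell held more than 1.79% of the Fosl1 UMIs of a library. Fosl1 passed the threshold in 12 of 15 settings, with log2 fold changes between -1.79 and -1.20, and edgeR's or DESeq2's highest adjusted p over them was 0.172. It did not pass with the granule limit at 1%, with Scrublet doublets removed or with cells of at least 2000 UMIs alone.

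**Figure D4:**
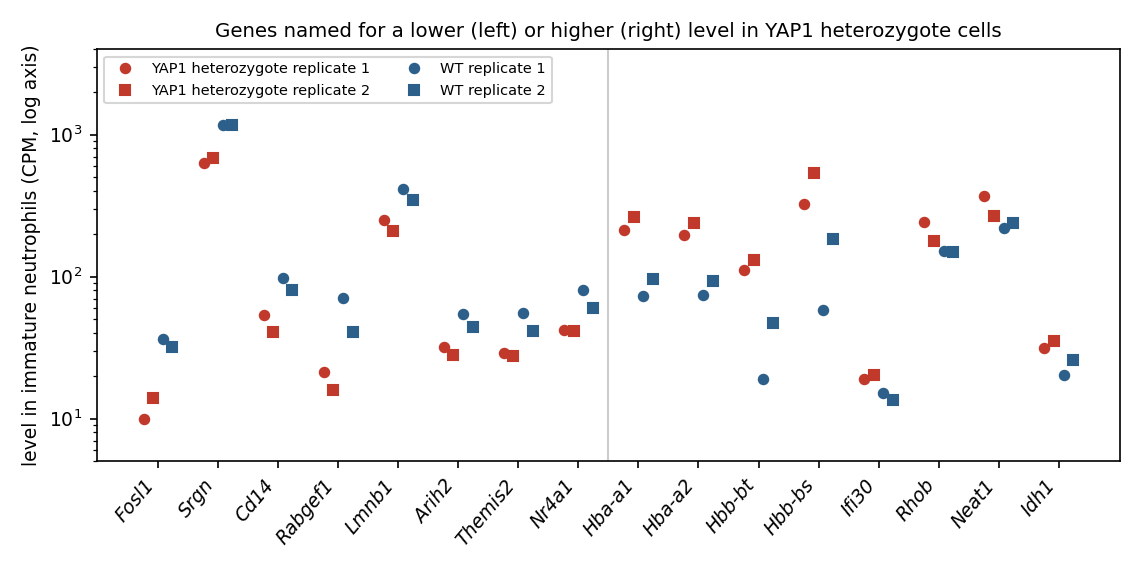
Level in CPM on a log axis (vertical) of 16 genes in immature neutrophils, 1 point per library. The left 8 were named for a lower level and the right 8 for a higher level in YAP1 heterozygotes, and of them only Fosl1, Hba-a1 and Hba-a2 passed edgeR's adjusted p of 0.05 in the fit without the replicate block.

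The genes that rose were both alpha-globin genes of red cells. Hba-a1 (chromosome 11, 32283511 to 32284465) stood at 212.5 and 264.5 CPM in YAP1 heterozygote cells, against 72.88 and 95.57 CPM in WT cells (log2 fold change 1.52, SE 0.177, edgeR adjusted p = 0.0457). Hba-a2 stood at 195.7 and 239.5 CPM in YAP1 heterozygote cells, against 74.07 and 93.46 CPM in WT cells (log2 fold change 1.40, SE 0.164, edgeR adjusted p = 0.0457). The copies are near-identical and close together, so reads may have been split between them. A single cell held up to 65.1% of the Hba-a1 UMIs of a library. With the top cell of each gene left out, Hba-a1 stood at 124.3 and 209.6 CPM in YAP1 heterozygote cells, against 25.53 and 46.06 CPM in WT cells, and edgeR's adjusted p was 0.0524 (lowest and highest over 15 settings 4.27e-20 and 0.278).

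Hemoglobin also differed between libraries outside the class. The share of thinned immature neutrophils with a Hba-a1 UMI was 3.3% and 4.52% in YAP1 heterozygotes, against 1.81% and 5.63% in WT, so that the groups overlapped. In B cells, which do not make globin, Hba-a1 stood at 239.6 and 705.5 CPM in YAP1 heterozygote libraries, against 159.3 and 752.5 CPM in WT libraries. In dividing precursors Hba-a1 stood at 198.3 and 409.6 CPM in YAP1 heterozygotes, against 17.7 and 88.12 CPM in WT, without overlap. In mature neutrophils it stood at 42.86 and 683.1 CPM in YAP1 heterozygotes, against 87.3 and 101.1 CPM in WT, which overlap. By stage, Hba-a1 stood at 507.9 and 288.2 CPM in early YAP1 heterozygote cells, against 12.24 and 60.02 CPM in early WT cells. In the middle cells it stood at 18.95 and 389.6 CPM in YAP1 heterozygote cells, against 178 and 187.4 CPM in WT cells. In the late cells it stood at 23.75 and 46.13 CPM in YAP1 heterozygote cells, against 12.69 and 38.09 CPM in WT cells. The genotypes overlapped in the middle and late cells. The summed level of the 6 erythroid markers in the class was 848.7 to 1180 CPM in YAP1 heterozygotes and 227.5 to 427.4 CPM in WT, with none of them at 0 in any library. Monocyte markers (6 genes) summed to 1440 to 1484 CPM in YAP1 heterozygotes and 1398 to 1431 CPM in WT, and macrophage markers (6 genes) to 13.97 to 40.4 CPM in YAP1 heterozygotes and 11.78 to 12.56 CPM in WT. The part of RNA from other cells in these calls was not tested.

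Several myeloid genes came next by p without passing edgeR's threshold in the fit without the block, and passed in other fits. Srgn, which encodes serglycin, the proteoglycan that packs granule proteases, stood at 631.8 and 683.1 CPM in YAP1 heterozygote cells, against 1175 and 1168 CPM in WT cells (log2 fold change -0.81, SE 0.112, edgeR adjusted p = 0.0917). Cd14, the lipopolysaccharide co-receptor, stood at 53.24 and 40.75 CPM in YAP1 heterozygote cells, against 97.1 and 81.14 CPM in WT cells (log2 fold change -0.90, SE 0.126, adjusted p = 0.0917 by edgeR). Rabgef1, a Rab5 exchange factor, stood at 21.42 and 15.82 CPM in YAP1 heterozygote cells, against 70.5 and 40.57 CPM in WT cells (log2 fold change -1.54). DESeq2's adjusted p was 3.81e-07 for Srgn, 1.9e-05 for Cd14 and 7.03e-09 for Rabgef1, and edgeR's with the replicate block was 6.29e-09, 1.08e-11 and 2.16e-18. After thinning, 3.08% and 2.16% of YAP1 heterozygote cells had a Rabgef1 UMI, against 9.8% and 7.28% of WT cells and 2.54% to 3.1% of B cells. The YAP1 heterozygote share was thus near the share in B cells, and whether B cells make Rabgef1 themselves was not tested.

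Lmnb1 is the gene of lamin B1 in the nuclear envelope. It stood at 251.5 and 209.2 CPM in YAP1 heterozygote cells, against 415.9 and 348.7 CPM in WT cells (log2 fold change -0.71, SE 0.109, edgeR adjusted p = 0.146). Nr4a1, an orphan nuclear receptor of the early response to stimuli, stood at 42.32 and 41.16 CPM in YAP1 heterozygote cells, against 80.86 and 59.81 CPM in WT cells (log2 fold change -0.72). Arih2, a ubiquitin ligase gene, and Themis2, a signalling adaptor of myeloid and B cells, had log2 fold changes of -0.69 and -0.74. Among the named higher genes, Rhob, a small GTPase, stood at 244.5 and 178.4 CPM in YAP1 heterozygote cells, against 151.5 and 149.4 CPM in WT cells (log2 fold change 0.51, SE 0.129, edgeR adjusted p = 0.322). Neat1, the long noncoding RNA of paraspeckles, Ifi30, a lysosomal thiol reductase, and Idh1, a cytosolic dehydrogenase, had log2 fold changes of 0.49, 0.48 and 0.54, and the beta-globins Hbb-bt and Hbb-bs had 1.89 and 1.84. None of these passed edgeR's threshold without the block. In DESeq2, Lmnb1, Nr4a1, Themis2 and Arih2 passed, with adjusted p of 0.000123, 0.00721, 0.013 and 0.0158, and the named higher genes did not. With the replicate block all of them passed in edgeR, with a highest adjusted p of 0.0101, that of Ifi30.

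Genes of the lists below were tested in the same edgeR fit without the block, and none passed the threshold in it except the 2 alpha-globins among the erythroid markers. Over all 10459 genes, 49.4% had a log2 fold change under 0 and 50.6% above 0, the median was 0.00, and the groups did not overlap in 18.3% of genes that were lower and 12.9% that were higher in YAP1 heterozygotes. The secondary granule list had 22 tested genes, of which 16 were above 0 and 6 under 0, with a median log2 fold change of 0.05. With 1 library left out this median ran from -0.02 to 0.15. Chil3 was 1 of 2 without overlap on the higher side, at 4843 and 5137 CPM in YAP1 heterozygote cells and 3836 and 4672 CPM in WT cells (log2 fold change 0.25). Lyz2, which encodes lysozyme, stood at 16430 and 17970 CPM in YAP1 heterozygote cells, against 13390 and 17290 CPM in WT cells. The gelatinase granule list (8 tested) had a median of 0.01 and the NADPH oxidase list (7 tested) one of 0.07. With 1 library left out they ran from -0.0128 to 0.0625 and from -0.0466 to 0.206. Mmp9 stood at 2029 and 1982 CPM in YAP1 heterozygote cells, against 2072 and 2015 CPM in WT cells.

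The primary granule list had 7 of 8 tested genes under 0, 4 of them without overlap, and a median of -0.42. Srgn is one of the 4 and is also made by many other blood cells. DESeq2 called 1 gene of the list lower, and edgeR with the replicate block called 5 lower. Elane stood at 27.47 and 20.55 CPM in YAP1 heterozygote cells, against 37.36 and 35.82 CPM in WT cells (log2 fold change -0.59, SE 0.132, edgeR adjusted p = 0.284). A single cell held up to 43.5% of the Elane UMIs of a library, and without the top cell Elane stood at 24.48 and 20.42 CPM in YAP1 heterozygote cells and 37.07 and 20.37 CPM in WT cells, which overlap. After thinning, 4.16% and 2.71% of YAP1 heterozygote cells had an Elane UMI, against 6.08% and 2.87% of WT cells. In B cells the share was 6.72% and 6.26% in YAP1 heterozygote libraries, against 10.03% and 5.57% in WT libraries. Each share in the class was thus below that in B cells of the same library. Elane stood at 576.3 and 415.5 CPM in B cells of YAP1 heterozygote libraries, against 963.5 and 792.1 CPM in those of WT libraries. Whether these B cell barcodes give the level of free RNA for Elane was not tested. The summed promyelocyte markers stood at 91.84 to 114.6 CPM in YAP1 heterozygotes and 128.4 to 153 CPM in WT. In B cells they stood at 2032 and 1484 CPM in YAP1 heterozygote libraries, against 3253 and 2743 CPM in WT libraries. The part of free RNA in the primary granule values was not tested.

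Among the lists other than cell type markers, that of NF-kB and inflammatory genes had the lowest median with all libraries in the fit. Of 30 tested genes, 29 were under 0 and 13 were lower without overlap, with a median log2 fold change of -0.61. None passed the threshold in edgeR without the block, 19 were lower with it, and 1 was lower in DESeq2. Without WT replicate 1 the median was -0.13, and that of the primary granule list was then lower, at -0.28. The inflammatory median was -0.67, -0.68 and -0.83 when another library was left out. Cxcl2, a chemokine that draws neutrophils, stood at 149.9 and 151.7 CPM in YAP1 heterozygote cells, against 952.7 and 297.4 CPM in WT cells (log2 fold change -2.00, SE 0.39, edgeR adjusted p = 0.219). Nfkbia, which encodes the inhibitor I-kappa-B alpha and is induced by NF-kB, stood at 190.8 and 127.5 CPM in YAP1 heterozygote cells, against 455.9 and 143.4 CPM in WT cells. WT replicate 1 thus stood far above the other 3 libraries in both, and Nfkbia overlapped between the genotypes. Clec4e, the pattern receptor Mincle, stood at 287.1 and 248.8 CPM in YAP1 heterozygote cells, against 425.6 and 335.3 CPM in WT cells (log2 fold change -0.48).

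Medians of the inflammatory list by stage include WT replicate 1, and whether they differed between stages was not tested. The median log2 fold change was -0.24 in the early cells, -0.53 in the middle cells and -0.61 in the late cells of the class. It was -0.40 in dividing precursors and -0.92 in mature neutrophils. In the early cells Cxcl2 stood at 36.88 and 58.38 CPM in YAP1 heterozygotes, against 201.5 and 28.59 CPM in WT, and Il1b at 12.1 and 24.49 CPM in YAP1 heterozygotes, against 64.77 and 13.43 CPM in WT. WT replicate 1 was thus high in both and WT replicate 2 was not above both YAP1 heterozygote libraries in either. After thinning, a Cxcl2 UMI was present in 11.25% and 10.04% of YAP1 heterozygote immature neutrophils, against 30.44% and 15.83% in WT, and in 1.79% and 2.19% of B cells from YAP1 heterozygote libraries, against 5.68% and 2.53% from WT libraries. B cells from WT replicate 1 thus also had the highest share.

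**Figure D5:**
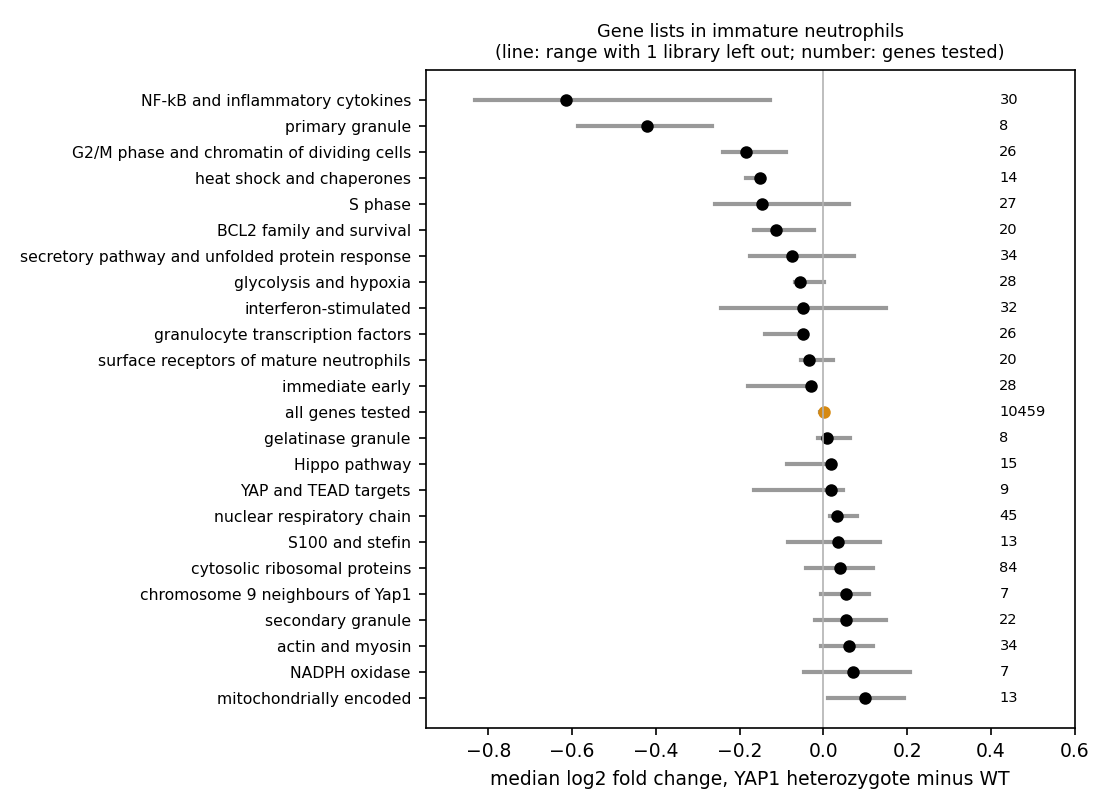
Median log2 fold change, YAP1 heterozygote minus WT (horizontal axis), of the tested genes of each list in immature neutrophils, with lines for the range of medians when 1 library is left out and the number of genes tested at the right. The NF-kB and inflammatory list stood at -0.61 with a line that reaches -0.13, and all genes tested (orange) stood at 0.00.

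Remaining lists of the cell's own programs had medians closer to 0. In edgeR with the replicate block, some of their genes passed, against 2.72% lower and 0.488% higher over all genes. Lower were 6 of 26 granulocyte transcription factors, 5 of 34 secretory pathway genes and 5 of 28 glycolysis genes, with 0 higher. So were 3 of 20 mature neutrophil receptors and 3 of 20 BCL2 family genes, with 0 higher. Of 28 immediate early genes, 7 were lower and 4 higher. The actin and ribosomal lists had 0 in either direction. The G2/M list, with residual transcripts of division and chromatin genes, had 24 of 26 tested genes under 0, 13 of them without overlap, and a median of -0.18. In it Cks2, a partner of cyclin-dependent kinases, stood at 135.2 and 130.4 CPM in YAP1 heterozygote cells, against 200.1 and 174.5 CPM in WT cells (log2 fold change -0.47, SE 0.0931, edgeR adjusted p = 0.219). The heat shock and chaperone list had 10 of 14 under 0 and a median of -0.15. In it, Hspa5 stood at 258 and 238.5 CPM in YAP1 heterozygote cells, against 367.4 and 330.4 CPM in WT cells (log2 fold change -0.47). Receptors of mature neutrophils (20 tested) had 8 lower and 3 higher without overlap and a median of -0.04. Within that list Il1r2, a decoy receptor for interleukin 1, stood at 196.3 and 172.4 CPM in YAP1 heterozygote cells, against 264.8 and 256.2 CPM in WT cells (log2 fold change -0.48).

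The granulocyte transcription factors (26 tested) had a median of -0.05. Cebpe stood at 325.2 and 343.5 CPM in YAP1 heterozygote cells, against 293.3 and 325.3 CPM in WT cells, so that the genotypes overlapped. Klf6, a zinc-finger factor, stood at 531.9 and 486.2 CPM in YAP1 heterozygote cells, against 677.6 and 621 CPM in WT cells (log2 fold change -0.33, SE 0.0967, edgeR adjusted p = 0.471). The actin and myosin list had 29 of 34 above 0 with a median of 0.06, and the cytosolic ribosomal proteins 63 of 84 with a median of 0.04. With 1 library left out these medians ran from -0.00698 to 0.119 and from -0.0419 to 0.119, so that both turned sign. Medians were -0.05 for interferon-stimulated genes, -0.03 for immediate early genes, -0.11 for the BCL2 family and 0.10 for mitochondrially encoded genes. That of interferon-stimulated genes ran from -0.245 to 0.149 with 1 library left out.

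Yap1 itself could not be assessed in these cells. Its UMI count was 0 in the immature neutrophils of all 4 libraries, which allows up to 0.176 and 0.175 CPM in the YAP1 heterozygote libraries and 0.178 and 0.18 CPM in the WT libraries. With no Yap1 UMI here and the allele not stated, the label of the genotype could not be checked by the Yap1 count. Wwtr1, which encodes the related coactivator TAZ, stood at 0 and 0.0584 CPM in YAP1 heterozygote cells, against 0.0595 and 0.421 CPM in WT cells, at the edge of detection. Of the 23 YAP and TEAD target genes listed, 9 were expressed enough to be tested, with 5 above 0, 4 under 0 and a median of 0.02. Gadd45a, a stress gene of that list, stood at 212.5 and 179.7 CPM in YAP1 heterozygote cells, against 310.4 and 236.5 CPM in WT cells (log2 fold change -0.45, SE 0.12, edgeR adjusted p = 0.374). The Hippo pathway list (15 tested of 23) had a median of 0.02, and Stk4, which encodes the kinase MST1, stood at 113.2 and 110.5 CPM in YAP1 heterozygote cells, against 112.5 and 110.5 CPM in WT cells.

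The genes beside Yap1 on chromosome 9 include a granule gene of this lineage, Mmp8, which is counted here in the gelatinase granule list. Mmp8 lies at -446.1 kb from Yap1 and stood at 2513 and 2216 CPM in YAP1 heterozygote cells, against 2377 and 2253 CPM in WT cells (log2 fold change 0.05, SE 0.116, edgeR adjusted p = 0.996). Birc2 and Birc3, which encode inhibitors of apoptosis in NF-kB signalling, had log2 fold changes of -0.18 and -0.39, and Tmem123 had 0.09. Birc3 stood at 42.73 and 31.24 CPM in YAP1 heterozygote cells, against 63.48 and 35.7 CPM in WT cells, which overlap. Myh9, the heavy chain of non-muscle myosin IIA, stood at 584.5 and 496.6 CPM in YAP1 heterozygote cells, against 540.3 and 513.2 CPM in WT cells (log2 fold change 0.06, SE 0.103, edgeR adjusted p = 0.996). Without YAP1 heterozygote replicate 1 or without WT replicate 2 the sign of Tmem123 turned, without WT replicate 1 that of Birc3, and without YAP1 heterozygote replicate 1 that of Myh9.

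Whether the genotype difference in the class was unlike that in its neighbours was tested by the term for class and genotype together. Against mature neutrophils, 15 of 11125 genes (0.135%) passed edgeR's adjusted p of 0.05. Srgn was lower in YAP1 heterozygotes by more in immature than in mature neutrophils, where it stood at 4590 and 5637 CPM in YAP1 heterozygotes, against 5836 and 6875 CPM in WT (difference of the log2 fold changes -0.53, SE 0.0753, edgeR adjusted p = 0.00605). Nfkbia went the other way, with 489.9 and 377.1 CPM in mature YAP1 heterozygote cells, against 2526 and 590.2 CPM in mature WT cells (0.79, SE 0.121, edgeR adjusted p = 0.00946). Stfa2l1, a stefin protease inhibitor, stood at 66.91 and 63.29 CPM in YAP1 heterozygote immature neutrophils, against 98.65 and 92.98 CPM in WT. In mature neutrophils Stfa2l1 stood at 793 and 789.5 CPM in YAP1 heterozygotes, against 789 and 669.7 CPM in WT (difference -0.69, SE 0.0954, edgeR adjusted p = 0.00487). Stefin genes have near-identical copies, so this value is uncertain.

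Against dividing precursors, 1 of 11667 genes (0.00857%) passed, and it was Retnlg. In immature neutrophils Retnlg stood at 12520 and 11470 CPM in YAP1 heterozygotes, against 12730 and 13680 CPM in WT. In dividing precursors it stood at 1620 and 1492 CPM in YAP1 heterozygotes, against 1935 and 2164 CPM in WT (difference 0.26, SE 0.0338, edgeR adjusted p = 0.0305). Retnlg is among the genes of the maturation index. It did not pass without 1 library when that library was YAP1 heterozygote replicate 2, WT replicate 1 or WT replicate 2.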

How the data were processed

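The authors deposited raw UMI counts, genes by barcodes, as 1 sparse matrix for each library. Cell Ranger 5.0.0 is named, per the file headers. Cell Ranger 3.0.0 and Seurat 4.3.0 are named, beside GRCm38 and mm10, per the submitters' processing notes. Which Cell Ranger version made the matrices could not be settled. Barcodes were selected as described, and the selection, gene lists and index genes were chosen with earlier results of these data known. For each class, the UMIs of a library were added up and compared in edgeR 4.0.16 (R 4.3.3; filterByExpr, TMM, quasi-likelihood test, Benjamini-Hochberg over all genes tested, threshold 0.05). Class by genotype terms kept the library as a block. CPM values are unadjusted for TMM. B cells were barcodes with a UMI of both Cd79a and Cd79b and calprotectin under 3%. Shares and index means were compared by exact permutation tests. The 2 libraries of each genotype carried transcripts of different sexes, so they did not come from a single mouse, and the spread between them includes any difference between the sexes.

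Named genes were those of the rule and markers, Yap1, Wwtr1, Myh9 and neighbours within 500 kb at 10 CPM or more, called genes, then the genes of lowest p without overlap at a mean log2 CPM of at least 4 (X and Y genes left out), list members of highest level and the 10 largest stage differences in each direction. Beyond this rule, the genes past an interaction test are given, and others printed (Il1r2, Spi1, Hspa5 by stage, the genes given by detection alone and the genes of the plot over bins) were chosen after their values were seen. Gene positions are from GENCODE on GRCm38, matched by Ensembl ID for 32409 of 32544 genes, and promoters from RefSeq GRCm38.p6. On simulated data for 10459 genes with 2 libraries each, the genotype test recovered 29.9% of 1.5-fold, 72.8% of 2-fold and 94.8% of 4-fold changes, and 3.81% of its calls were false. The simulated libraries were drawn independently at the trend of dispersion, without spread of single genes around it and without an effect of replicate number or sex. These rates may therefore not hold for the real libraries. Alternatives were DESeq2 1.42.0, RLE factors, no filter, other class limits, doublets removed (Scrublet in scanpy 1.11.5), deeper cells, the top cell left out, a replicate block and each library left out.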

Additional observations from a re-analysis of the deposited data

Results flagged for a closer look

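Each gene here had a genotype difference in immature neutrophils that differed from that in a neighbouring class by edgeR's interaction test. Values are differences of log2 fold changes, immature neutrophils minus the other class, and each fold change is YAP1 heterozygote minus WT. Against mature neutrophils, 3 genes of neutrophils were Srgn at -0.53 (adjusted p = 0.00605), Nfkbia at 0.79 (0.00946) and Stfa2l1 at -0.69 (0.00487). Olr1, the oxidized lipoprotein receptor, stood at 2.15 (adjusted p = 0.00946), with 15.44 and 16.35 CPM in YAP1 heterozygote immature neutrophils, against 15.77 and 11.78 CPM in WT. In mature neutrophils Olr1 stood at 1.888 and 1.551 CPM in YAP1 heterozygotes, against 9.657 and 3.843 CPM in WT. Ifit1, an interferon-induced gene, stood at -1.24 (adjusted p = 0.0389), with 1.526 and 2.452 CPM in YAP1 heterozygote immature neutrophils, against 4.403 and 5.71 CPM in WT. Over the replicate block and the 4 fits with 1 library left out, Nfkbia and Stfa2l1 passed in all 5. Srgn and Olr1 passed in 4 and were lost without YAP1 heterozygote replicate 2, with adjusted p of 0.0984 and 0.0826. Ifit1 passed in 2, with a highest adjusted p of 0.222.

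The other 10 genes against mature neutrophils are known from other cell types. The immunoglobulin and plasma cell genes Jchain, Igkc and Igha stood at -4.89, -3.10 and -5.48. In immature neutrophils Igha stood at 8.922 and 13.78 CPM in YAP1 heterozygotes, against 8.389 and 232.1 CPM in WT, and a single cell held up to 85.2% of the Igha UMIs of a library. The basophil and mast cell genes Cpa3, Mcpt8 and Prss34 stood at -2.98, -3.50 and -2.88, with up to 69.2%, 60.5% and 53.6% of a library's UMIs in a single cell. Pf4 of platelets stood at -3.14, Cxcl12 of stromal cells at -5.92, Cd209a of monocyte-derived and dendritic cells at -2.46 and Vpreb1 of precursor B cells at 1.87. Cxcl12 was too low to be tested in immature or in mature neutrophils alone, so its value rests on few UMIs. Over the same 5 fits Jchain, Igkc, Igha, Mcpt8 and Prss34 passed in all, Pf4 in 4, Cpa3 and Cd209a in 3, and Cxcl12 and Vpreb1 in 2. The part of doublets and free RNA in these 10 was not tested. Against dividing precursors, Retnlg stood at 0.26 (edgeR adjusted p = 0.0305) and passed in 2 of the 5 fits.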

How the results depend on the processing

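With 3 genes called among 10459, the count of calls depended on the setting. DESeq2 called 25 (2 higher, 23 lower), edgeR without a filter on low counts 114 (19 higher, 95 lower), the 6% granule limit 6 and the fit without each gene's top cell 1, which was Fosl1. The count was 0 with the 1% granule limit, with Scrublet doublets removed and with cells of at least 2000 UMIs (654, 658 and 623 genes at an unadjusted p under 0.05). It was also 0 in the early, middle and late cells (532, 422 and 406), a split added after seeing the data. Leaving out 1 library gave 11 to 142 calls, and the 3 genes were among them each time. RLE factors, the 5% mitochondrial limit and, added after seeing the data, totals without the 5 genes summed by the rule gave 3. Deviations of same-numbered libraries from their group means correlated at 0.749, which with 2 pairs does not establish pairing, and number and sex coincide. Under a replicate block the class had 335 calls (51 higher, 284 lower). The test against mature neutrophils then had 16, with 10 of the 15 genes among them, and that against dividing precursors 11. In the tests against mature neutrophils and against dividing precursors, leaving out 1 library gave 18 to 94 and 2 to 22 calls, with 10 to 15 of the 15 genes kept against mature neutrophils. The share difference ranged over -1.38 to 1.01 percentage points with 1 library left out, and the index difference over -0.0664 to -0.0263. Log2 fold changes that turned sign, among the 21 genes refitted under each setting, were those of Tmem123 (-0.0605 to 0.27, with -0.00697 without YAP1 heterozygote replicate 1), Birc3 (-0.707 to 0.0207) and Myh9 (-0.0118 to 0.139), over the fits with 1 library left out, and the cause was not tested. Of 85 genes from the lists and the text, 45 turned sign, among them Lyz2 (-0.0309 to 0.44), Mmp9 (-0.0319 to 0.0296), Nfkbia (-1.45 to 0.118) and Stk4 (-0.00805 to 0.0676). The 2 libraries a group limit what can pass, and a difference under the threshold is not shown to be absent.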
